A study of Mus musculus with 14 samples.

Results

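The Rb and E2F family comprised 10 genes that were chosen by name: the pocket protein genes Rb1, Rbl1 and Rbl2, the activator genes E2f1, E2f2 and E2f3, the repressor-type gene E2f4, the atypical genes E2f7 and E2f8, and Tfdp1, which encodes the partner protein of most E2Fs. All 10 were found among the 30503 genes of the count table, and all 10 were among the 17358 genes with enough counts to be tested. They were measured by bulk RNA-seq in 14 cultured clones, each grown from 1 tdTomato+ skeletal cell of mouse femur bone marrow, where tdTomato is a red reporter switched on by Cre. The Fgfr3-WT (P23) group held 5 clones with the genotype Fgfr3-creER; R26R(tdTomato/+), isolated at postnatal day 23 and grown to passage 8. The Fgfr3-p53 cKO (P28) group held 5 clones and the Fgfr3-p53 cKO (P4M) group 4 clones, both with the genotype Fgfr3-creER; Trp53fl/fl; R26R(tdTomato/+), isolated at postnatal day 28 and at 4 months and grown to passage 8 and to passages 6 to 8. All mice, controls included, carried the Fgfr3-creER transgene and the reporter and received tamoxifen at postnatal day 21, so recombination was restricted to cells in which the Fgfr3 transgene was active. Each library is 1 clone, the labels do not say how many mice the clones came from, and p-values measure only the spread between clones.

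Pocket proteins bind E2F transcription factors and keep genes for DNA replication and division silent. Cyclin-dependent kinases phosphorylate the pocket proteins, which frees the activator E2Fs. The p53 target p21, encoded by Cdkn1a, inhibits these kinases, and the atypical E2Fs repress E2F target genes again later in the cycle without a DP partner. E2F4 acts mostly together with p107 (Rbl1) and p130 (Rbl2), in part within the DREAM complex, which also holds the MuvB core proteins.

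Total counts were 25688946 to 38958693 in the Fgfr3-WT libraries, 37606033 to 48648618 in P28 and 43757832 to 52857424 in P4M, so a count of 0 in a library allows up to 3 counts, or 0.0564 to 0.121 CPM (counts scaled to a common library total). Trp53 lay at 49.9 to 68.2 CPM in the Fgfr3-WT clones, 2.18 to 2.84 CPM in P28 and 1.72 to 2.37 CPM in P4M, and no clone went against its labelled genotype. All Fgfr3-WT libraries carry one submission number in their names and all cKO libraries another, so genotype and submission cannot be told apart, while P28 and P4M share theirs. The 10 skeletal marker genes summed to 1691 to 22952 CPM in Fgfr3-WT, 28164 to 45822 CPM in P28 and 16345 to 84808 CPM in P4M. Of these markers, the bone collagen gene Col1a1 and Runx2 were higher, and the cartilage genes Col2a1, Acan and Sox9 lower, in both cKO groups. The 10 blood markers, of which 7 are in the count table, summed to 12.8 to 90.8, 1.94 to 20.4 and 2.61 to 7.90 CPM in the same order, mostly from Lyz2, with no count listed for Cd3e, Hbb-bs and Ms4a1. The 5 endothelial markers summed to 0.0809 to 0.740 CPM in Fgfr3-WT, 0.410 to 4.49 CPM in P28 and 2.75 to 12.8 CPM in P4M, with no count listed for Cdh5. Most of this was Kdr, a growth factor receptor gene, which was higher in P28 and P4M (edgeR, adjusted p = 0.0190 and 0.00224). The part of these differences in the results was not tested.

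The promoters of 8 of the 10 genes matched entries of RefSeq (GRCm38.p6, the mm10 assembly), with 250 bases before and 50 bases after the start site. Both strands were searched for the 4 words that an E2F consensus with C or G at both middle bases allows, a choice made with the levels of these genes known. At least 1 of them lay in a promoter of 6 of the 8 genes (75%), against 10.9% of all 27025 genes with a promoter in the table. The word TTCCCGC was in 2 of the 8 genes, E2f3 and E2f7, and in 5.29% of all genes. The word TTGGCGC was in 4, E2f2, E2f3, E2f7 and E2f8, and in 2.85% of all genes. The word TTCGCGC was in 2, Rbl1 and Tfdp1, and in 1.81% of all genes, and the word TTGCCGC was in none of the 8 and in 2.05% of all genes. The stretches below end at the base before the start site and are printed 5′ to 3′ on the strand of the gene, with the E2F words in capitals, since these 5 genes were higher in cKO clones and carry such words before the start.
E2f7, chr10:110745189-110745438, plus strand: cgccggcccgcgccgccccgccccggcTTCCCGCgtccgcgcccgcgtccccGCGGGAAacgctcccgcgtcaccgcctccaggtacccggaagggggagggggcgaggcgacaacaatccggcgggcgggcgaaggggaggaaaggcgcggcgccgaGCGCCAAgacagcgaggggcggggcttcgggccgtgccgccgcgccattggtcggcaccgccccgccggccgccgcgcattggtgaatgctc
E2f8, chr7:48881597-48881716, minus strand: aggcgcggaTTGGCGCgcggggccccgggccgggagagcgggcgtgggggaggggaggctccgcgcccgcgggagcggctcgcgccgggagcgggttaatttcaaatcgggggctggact
Rbl1, chr2:157204535-157204654, minus strand: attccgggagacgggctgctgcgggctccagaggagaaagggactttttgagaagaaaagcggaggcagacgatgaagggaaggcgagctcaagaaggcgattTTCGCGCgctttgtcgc
E2f3, chr13:29986064-29986183, minus strand: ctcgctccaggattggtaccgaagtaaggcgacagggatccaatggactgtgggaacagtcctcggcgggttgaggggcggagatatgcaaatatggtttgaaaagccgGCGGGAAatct
Tfdp1, chr8:13338631-13338750, plus strand: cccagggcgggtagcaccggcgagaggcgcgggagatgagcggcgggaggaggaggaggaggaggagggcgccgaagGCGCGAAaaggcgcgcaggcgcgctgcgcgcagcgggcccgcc
The E2f7 promoter held 3 words, which began 223, 198 and 92 bases before the start site. The other stretches held 1 word each, 111 bases before the start in E2f8, 17 in Rbl1, 11 in E2f3 and 43 in Tfdp1. E2f3 had a further word 18 bases after this start, and 1 of the 2 listed E2f2 promoters had a word 40 bases after its start. No word was found in the windows of E2f1 and Rbl2, and the listed E2f1 start lay 466 bases inside the GENCODE gene. The word of the CHR element (TTTGAA, both strands), which is bound by the MuvB core, was in the windows of E2f2, E2f3, E2f8 and Rbl2 and in those of 20.2% of all genes. No E2F word overlapped a CHR word in these windows. A match of letters is a description and not a binding site.

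The first question was which family genes differed from Fgfr3-WT (P23) in each cKO group, and the second whether the cKO groups differed from each other. With edgeR's quasi-likelihood test and Benjamini-Hochberg adjustment over all tested genes at an FDR of 0.05, 5 of the 10 genes were higher in P28 than in Fgfr3-WT and none was lower, where 38.9% of all tested genes were called (19.2% higher and 19.7% lower). In P4M, 6 genes were higher and 1 was lower, against 45.9% of all tested genes (22.3% higher, 23.6% lower). Over both cKO groups 7 genes were higher and none was lower, against 48.8% of all tested genes (23.1% higher, 25.7% lower). P4M differed from P28 in 1 gene, Rb1, which was higher, against 7.22% of all tested genes (3.34% higher, 3.88% lower). With 10 genes, the numbers called lay near these backgrounds, while all but 1 of the calls were higher in cKO or in P4M. The median log2 fold change of the 10 genes was 0.71 in P28, 0.71 in P4M and 0.76 over both cKO groups, beside medians of -0.02, -0.06 and -0.05 over all genes.

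Both comparisons with Fgfr3-WT use the same 5 control clones, so their values are not independent. These control clones were all isolated at postnatal day 23, and neither cKO group has a control of its own age. Genotype and isolation age thus cannot be told apart in these comparisons. The paper reports that cKO clones grew faster in culture and survived more passages than control clones. An equal passage number therefore does not mean an equal time in culture. Time in culture and the selection of surviving clones cannot be told apart from genotype here, and their part in the results was not tested. The balance of directions differed between edgeR on counts and limma on log2(TPM + 1), which differ in unit, transform, test and scaling together. On deposited TPM values the median of all genes in P28 against Fgfr3-WT was 0.20 on the log2 scale, and 72.6% of the called genes were higher, against 49.4% with TMM-scaled counts. For both cKO groups together these shares were 64.3% and 47.4%, and for P4M against P28 they were 23.9% and 46.3%.

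**Figure D1:**
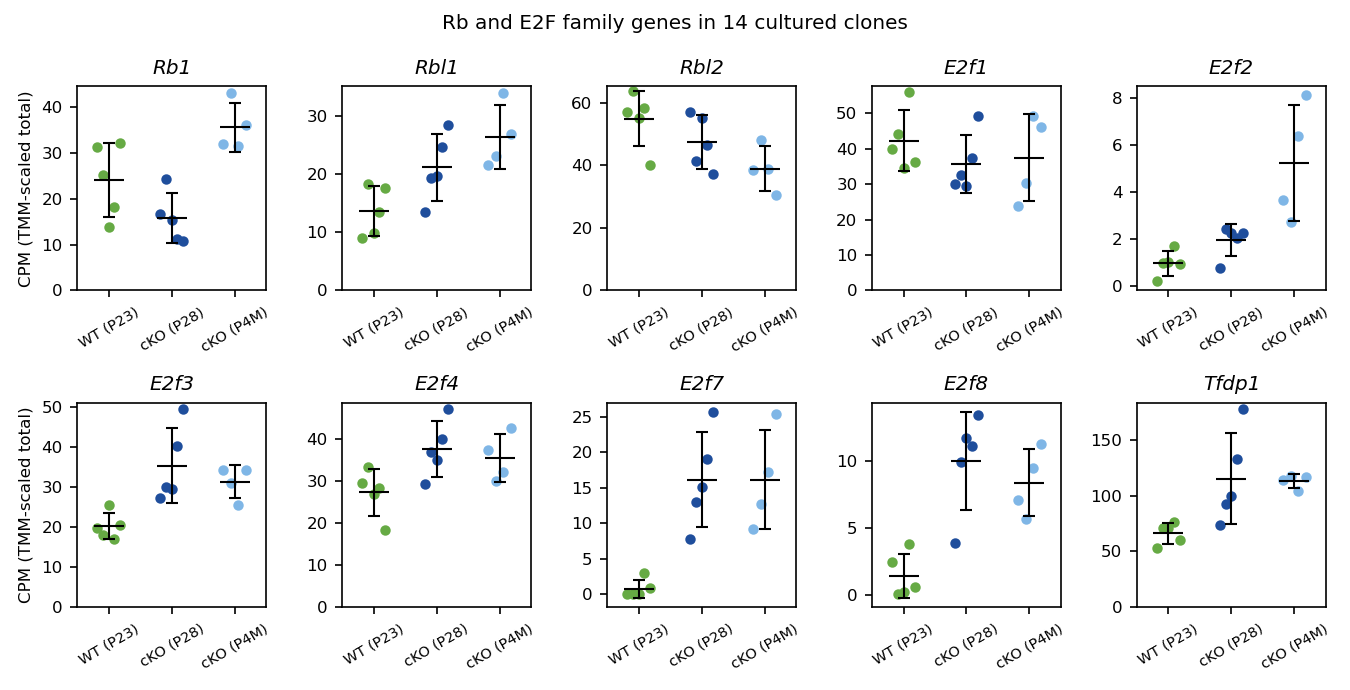
Level of each of the 10 family genes in CPM (vertical axis, TMM-scaled library totals, linear, a separate range per gene) in 5 Fgfr3-WT (P23), 5 Fgfr3-p53 cKO (P28) and 4 Fgfr3-p53 cKO (P4M) clones. Points are clones, bars mark the mean ± SD. E2f7, E2f8 and E2f3 are higher in every cKO clone than in any Fgfr3-WT clone, E2f1 overlaps in all groups, and Rb1 separates P28 from P4M.

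Rb1 was the only family gene called between the cKO groups. Rb1 (ENSMUSG00000022105, chr14:73183673-73325822, minus strand) encodes the retinoblastoma protein, which restrains the activator E2Fs. Its level in Fgfr3-WT clones 1 to 5 was 31.4, 25.3, 13.8, 18.2 and 32.2 CPM. In P28 clones 1 to 5 it was 16.7, 24.4, 15.5, 11.3 and 10.9 CPM, and in P4M clones 1 to 4 it was 31.9, 43.0, 31.5 and 36.3 CPM. Every P4M clone lay above every P28 clone, and the Fgfr3-WT clones overlapped both ranges. The log2 fold change in P4M against P28 was 1.18 ± 0.278 (SE), or 2.27-fold higher (edgeR, adjusted p = 0.0254). The call did not survive the omission of 4 of the 14 clones one at a time, namely P28 replicate 1, P28 replicate 3, P4M replicate 2 or P4M replicate 4 (adjusted p up to 0.0711), and with limma on TPM. Against Fgfr3-WT, neither P28 (-0.62 ± 0.264, adjusted p = 0.0783) nor P4M (0.56 ± 0.277, adjusted p = 0.114) passed, and the former passed without Fgfr3-WT replicate 3 or P28 replicate 2 (adjusted p down to 0.0201). In the annotation 14.9% of the exon bases of Rb1 are shared with Rcbtb2 and Lpar6 on the other strand, which this library kit cannot separate. By the methods, ambiguously mapped reads were not counted, so reads from these shared bases may have been left out rather than counted for Rb1. Rcbtb2 was at 38.3 to 50.7 CPM in P28 and 37.2 to 45.2 CPM in P4M.

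Rbl1 (ENSMUSG00000027641, chr2:157145893-157204534, minus strand) encodes p107, whose gene is itself a known E2F target. It was at 9.02, 18.3, 9.95, 13.5 and 17.7 CPM in Fgfr3-WT clones 1 to 5. The P28 clones had 13.4, 19.4, 19.8, 24.7 and 28.4 CPM and the P4M clones 21.5, 23.1, 33.9 and 26.9 CPM. P28 overlapped Fgfr3-WT through its replicate 1, while P4M did not overlap. Rbl1 was 1.93-fold higher in P4M than in Fgfr3-WT (log2 fold change 0.95 ± 0.258, edgeR adjusted p = 0.0093). In P28 the value was 0.63 ± 0.245 (adjusted p = 0.0569), and it passed with DESeq2, with limma on TPM, without scaling, and with at least 10 counts in every clone.

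Rbl2 (ENSMUSG00000031666, chr8:91070057-91123844, plus strand) encodes p130, the pocket protein that prevails in resting cells. It was the only family gene called lower. Its levels were 57.0, 63.6, 55.3, 58.4 and 40.1 CPM in Fgfr3-WT, 57.0, 41.5, 55.1, 46.4 and 37.3 CPM in P28 and 38.5, 48.0, 38.8 and 30.5 CPM in P4M. The groups overlapped, since Fgfr3-WT replicate 5 lay within the range of P4M. Rbl2 fell by 0.49 on the log2 scale in P4M (SE 0.177, edgeR adjusted p = 0.0347), and this call was lost without Fgfr3-WT replicate 2, 3 or 4 or P4M replicate 1, 3 or 4 (adjusted p up to 0.115). It was also lost without a filter on low counts, in a fit of Fgfr3-WT and P4M alone, and with limma on TPM. In P28 the value was -0.21 ± 0.165 (adjusted p = 0.336), and 0.04 on TPM values. Aktip and Gm45464, on the other strand, share 9.17% and 11.8% of its exon bases.

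Summed as TPM, which accounts for gene length, the totals of the 3 pocket protein genes overlapped between the groups: 32.5 ± 5.74 TPM (SD, n = 5) in Fgfr3-WT, 33.6 ± 2.18 TPM (n = 5) in P28 and 34.5 ± 2.62 TPM (n = 4) in P4M. Rb1 made up 29.5% ± 10.2 of it in Fgfr3-WT, 18.9% ± 6.60 in P28 and 34.8% ± 3.91 in P4M. Rbl1 made up 14.8% ± 4.72, 26.7% ± 9.61 and 27.2% ± 5.02 in that order, and Rbl2 55.6% ± 10.6, 54.4% ± 8.25 and 38.0% ± 3.4. The ranges of these shares overlapped between the groups, except for Rbl1 between Fgfr3-WT (8.33% to 20.3%) and P4M (21.1% to 32.7%) and for Rbl2, which lay at 33.2% to 40.8% in P4M, below both other groups. These shares were computed after the levels were seen and carry no test.

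The activator genes did not move together. E2f1 (ENSMUSG00000027490, chr2:154559407-154569892, minus strand), which encodes the founding E2F and can drive S phase as well as apoptosis, was at 39.9, 44.3, 34.5, 56.1 and 36.4 CPM in Fgfr3-WT. It was at 30.2, 32.6, 29.5, 37.3 and 49.2 CPM in P28 and at 23.9, 30.4, 49.4 and 46.3 CPM in P4M. All 3 groups overlapped, and in CPM the Fgfr3-WT mean was the highest of the 3. The log2 fold change was -0.24 ± 0.219 in P28 (edgeR, adjusted p = 0.407; 0.04 on TPM values) and -0.17 ± 0.233 in P4M (adjusted p = 0.574). No alternative fit called E2f1 in either comparison.

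E2f2 (ENSMUSG00000018983, chr4:136172394-136196057, plus strand), an activator with a narrow expression range among tissues, was low in all clones. Its levels were 0.195, 0.957, 1.01, 1.68 and 0.910 CPM in Fgfr3-WT, 0.753, 2.44, 2.25, 2.05 and 2.25 CPM in P28, and 3.65, 2.73, 6.38 and 8.12 CPM in P4M. Every P4M clone exceeded every clone of the other groups. E2f2 was 5.47-fold higher in P4M than in Fgfr3-WT (log2 fold change 2.45 ± 0.525, edgeR adjusted p = 0.00223). P28 gave 1.03 ± 0.491 (adjusted p = 0.112). For P4M against P28 the difference was 2.68-fold (SE 0.508 on the log2 scale, adjusted p = 0.0993), which passed with DESeq2, with only these groups in the fit and without Fgfr3-WT replicate 1.

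E2f3 (ENSMUSG00000016477, chr13:29906575-29986063, minus strand), an activator needed for proliferation of many cell types, was at 19.9, 17.9, 25.4, 17.0 and 20.6 CPM in Fgfr3-WT. It was at 27.3, 30.1, 29.6, 40.4 and 49.6 CPM in P28 and at 34.3, 31.2, 25.6 and 34.3 CPM in P4M. No cKO clone overlapped the Fgfr3-WT range, although the lowest P4M clone lay just above it. The log2 fold change was 0.81 ± 0.181 in P28 (edgeR, adjusted p = 0.00356) and 0.64 ± 0.190 in P4M (adjusted p = 0.0149), and neither call was lost when any single clone was left out.

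In TPM, E2f1 accounted for 77.3% ± 5.35 (SD, n = 5) of the activator transcripts in Fgfr3-WT, for 63.2% ± 1.66 (n = 5) in P28 and for 63.4% ± 8.57 (n = 4) in P4M. The total of the activators was 28.7 ± 1.85, 37.0 ± 9.50 and 33.1 ± 7.37 TPM. The ranges of these totals overlapped between the groups.

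E2f4 (ENSMUSG00000014859, chr8:105297663-105305370, plus strand), the E2F of resting and early cycling cells, was at 29.6, 33.2, 26.9, 28.3 and 18.3 CPM in Fgfr3-WT. It was at 29.3, 36.8, 34.9, 39.9 and 47.2 CPM in P28 and at 37.3, 29.9, 32.2 and 42.6 CPM in P4M. The ranges overlapped in both comparisons. E2f4 was 1.38-fold higher in P28 (log2 fold change 0.46 ± 0.174, edgeR adjusted p = 0.0484), and P4M gave 0.38 ± 0.184 (adjusted p = 0.106). When each clone was omitted in turn, the P28 call stayed in 3 of 14 fits, those without Fgfr3-WT replicate 2, P28 replicate 1 or P4M replicate 4, and was lost in 11 (adjusted p up to 0.153). Over both cKO groups the value was 0.42 ± 0.156 (adjusted p = 0.0376), lost in 10 of 14 such fits.

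**Figure D2:**
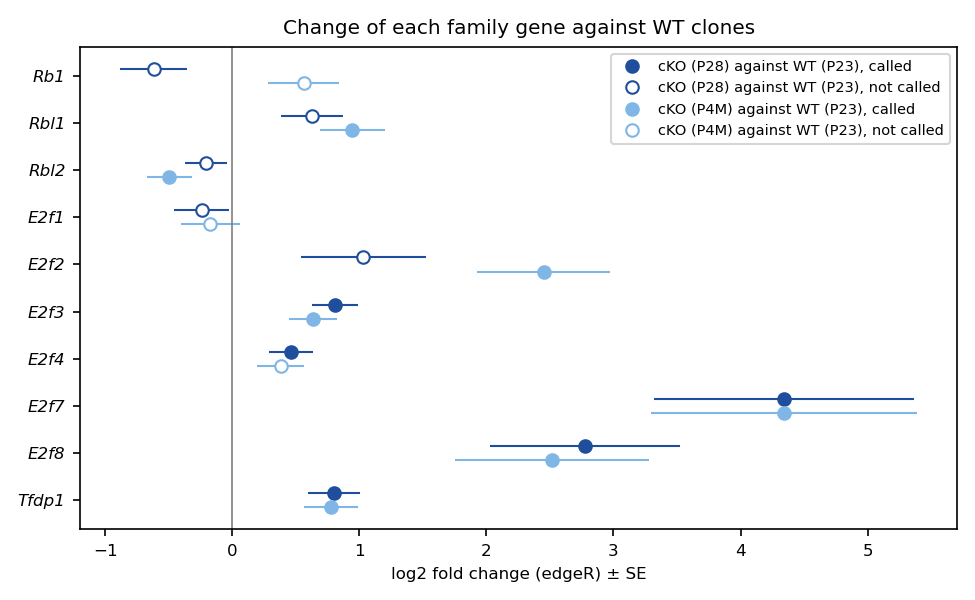
Log2 fold change (horizontal axis, edgeR estimate ± SE) of each family gene in P28 (dark) and P4M (light) against the 5 Fgfr3-WT clones, with filled points for calls at an FDR of 0.05. E2f7 has the largest estimate (4.34 in both groups) and E2f1 lies below 0 in both without being called. Both groups share the same Fgfr3-WT clones.

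Of the atypical genes, E2f7 had the largest fold change in the family, while in P4M the estimates of E2f8 and E2f2 differed from each other by less than their SEs. E2f7 (ENSMUSG00000020185, chr10:110745439-110787384, plus strand) had 2, 1, 0, 105 and 20 counts in Fgfr3-WT clones 1 to 5, which is 0.065, 0.038, 0, 2.99 and 0.792 CPM. The P28 clones had 7.77, 13.0, 15.1, 19.1 and 25.7 CPM and the P4M clones 9.16, 12.7, 17.3 and 25.5 CPM. The groups did not overlap, and 3 of the 5 Fgfr3-WT clones were at or under the 3-count floor. The log2 fold change was 4.34 ± 1.03 in P28 (edgeR, adjusted p = 0.0051) and 4.34 ± 1.05 in P4M (adjusted p = 0.0047), about 20.3-fold in each. This estimate rests on Fgfr3-WT replicate 4, and without it the value was 6.17 in P28 and 6.17 in P4M. P4M against P28 gave 0.0017 ± 0.935 (adjusted p = 0.9999).

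E2f8 (ENSMUSG00000046179, chr7:48866429-48881596, minus strand), the partner of E2F7 in repressing E2F targets, was at 2.51, 0.115, 0.243, 3.78 and 0.594 CPM in Fgfr3-WT. It was at 3.89, 9.92, 11.7, 11.1 and 13.4 CPM in P28 and at 7.13, 5.67, 9.48 and 11.3 CPM in P4M. No cKO clone overlapped Fgfr3-WT, although P28 replicate 1 lay only just above Fgfr3-WT replicate 4. The log2 fold change was 2.77 ± 0.747 in P28 (edgeR, adjusted p = 0.0105) and 2.52 ± 0.763 in P4M (adjusted p = 0.0162). Without Fgfr3-WT replicate 4 these were 3.51 and 3.26. Gm2788, on the other strand, shares 11.2% of the exon bases of E2f8 and was at no more than 0.538 CPM in any clone.

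Together E2f7 and E2f8 made up 1.44% ± 1.53 (SD, n = 5) of the TPM of the 6 E2F genes in Fgfr3-WT, 12.3% ± 2.96 (n = 5) in P28 and 12.1% ± 2.56 (n = 4) in P4M. The total over these 6 genes was 51.1 ± 5.58, 84.8 ± 20.5 and 71.7 ± 14.4 TPM. The share of the activators was 56.5% ± 4.71, 43.6% ± 2.87 and 46.1% ± 4.45, and that of E2f4 42.0% ± 5.45, 44.1% ± 2.14 and 41.8% ± 5.46.

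**Figure D3:**
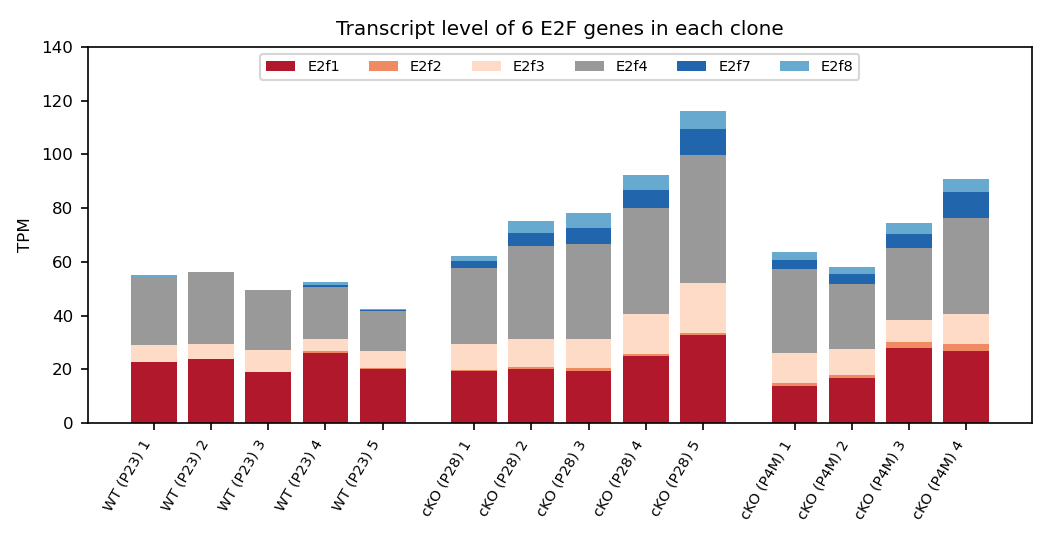
Transcript level in TPM (vertical axis, from 0) of E2f1, E2f2, E2f3, E2f4, E2f7 and E2f8, stacked in each of the 14 clones. The atypical E2Fs in blue are 0.124% to 3.84% of the stack in Fgfr3-WT clones and 7.29% to 15.7% in cKO clones, and the heights of the red E2f1 segment overlap between the groups.

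Tfdp1 (ENSMUSG00000038482, chr8:13338751-13378448, plus strand) encodes DP1, with which the typical E2Fs bind DNA. It was at 52.8, 71.1, 71.1, 76.1 and 60.7 CPM in Fgfr3-WT, at 73.5, 92.8, 99.6, 133 and 178 CPM in P28 and at 115, 118, 105 and 117 CPM in P4M. P28 replicate 1 lay inside the Fgfr3-WT range and all other cKO clones above it. Tfdp1 was 1.74-fold higher in P28 (log2 fold change 0.80 ± 0.203, edgeR adjusted p = 0.00755) and 1.71-fold higher in P4M (0.77 ± 0.213, adjusted p = 0.0097). No single clone removed either call.

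Groups that do not overlap were found for 3 of the 10 genes in P28 against Fgfr3-WT (E2f3, E2f7 and E2f8), all higher, where 24.5% of all tested genes separated, 13% higher and 11.5% lower. In P4M against Fgfr3-WT 6 genes separated, all higher (Rbl1, E2f2, E2f3, E2f7, E2f8 and Tfdp1), where 33.6% did, 17.8% higher and 15.7% lower. Taken over all 9 cKO clones 3 genes separated, all higher (E2f3, E2f7 and E2f8), where 18.1% did, 9.73% higher and 8.38% lower. Rb1 and E2f2 separated P4M from P28, both higher, where 19% did, 9.07% higher and 9.96% lower.

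By TPM, the order of the levels was led by Tfdp1 in every group, with 43.1, 94.0 and 79.6 TPM on average, and its range did not overlap that of the next gene. E2f1 (22.3 TPM) and E2f4 (21.7 TPM) came next in Fgfr3-WT and overlapped. In the cKO groups E2f4 stood before E2f1, with 37.0 against 23.3 TPM in P28 and 29.6 against 21.4 TPM in P4M, and the ranges of these neighbours overlapped as well. The next genes were Rbl2, Rb1, E2f3 and Rbl1 in Fgfr3-WT, Rbl2, E2f3, Rbl1 and Rb1 in P28 and Rbl2, Rb1, E2f3 and Rbl1 in P4M, and each neighbour in these orders overlapped the next. At the lower end, E2f8, E2f2 and E2f7 overlapped each other in Fgfr3-WT at 0.550, 0.308 and 0.192 TPM, below the range of Rbl1 (4.80 TPM). In the cKO groups E2f2 was last, at 0.71 TPM in P28, where it did not overlap E2f8 (4.87 TPM), and at 1.65 TPM in P4M, where it did (3.58 TPM).

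The E2F and DP genes outside these 10 were not called in any comparison. E2f5 gave log2 fold changes of -0.14 ± 0.194 and 0.29 ± 0.205 in P28 and P4M against Fgfr3-WT (edgeR, adjusted p = 0.601 and 0.263). E2f6, a repressor that acts without pocket proteins, gave -0.37 ± 0.205 and -0.18 ± 0.217 (adjusted p = 0.173 and 0.530). Tfdp2 gave -0.78 ± 0.437 and -1.10 ± 0.473 (adjusted p = 0.177 and 0.0728), with 1 Fgfr3-WT clone at 149 CPM and the other 4 at 24.6 to 34.0 CPM.

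Genes that work with or downstream of the family were taken from lists chosen with earlier results of these data known, so their counts are descriptions beside the background shares given above. Of 25 G1/S genes known as E2F targets, 23 were higher and none lower in P28, 22 and none in P4M, and 23 and none over both cKO groups, with median log2 fold changes of 1.83, 1.83 and 1.82. Uhrf1, a factor for maintaining DNA methylation, had 3.92 ± 0.661 (edgeR, adjusted p = 0.000383) and Mcm5, a subunit of the replicative helicase, 3.62 ± 0.654 (adjusted p = 0.00062) over both cKO groups. E2f1 itself was not called in these comparisons. An E2F word was found in the promoters of 15 of the 21 matched G1/S genes (71.4%), beside 10.9% of all genes.

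All 14 G2/M genes bound by DREAM, B-Myb and FoxM1 were higher in both cKO groups, with median log2 fold changes of 3.62 and 3.86. Over both groups Ccnb1, which encodes the mitotic cyclin B1, had 4.56 ± 0.762 (edgeR, adjusted p = 0.000355) and Top2a, a topoisomerase of mitotic chromosomes, 4.00 ± 0.754 (adjusted p = 0.000818). The CHR word was in the promoters of 8 of the 12 matched G2/M genes (66.7%), beside 20.2% of all genes. The E2F word was in 2 of them (16.7%), beside 10.9% of all genes. Of the 21 G1/S genes, 2 (9.52%) held the CHR word. Both lists were drawn from known targets of these factors, so such shares follow in part from the choice of genes.

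Of the 7 genes of the MuvB core, B-Myb and FoxM1, 5 were higher and 2 lower over both cKO groups. Foxm1, an activator of mitotic genes, had 3.25 ± 0.424 (edgeR, adjusted p = 6.77e-05) and Mybl2, which encodes B-Myb, 3.05 ± 0.384 (adjusted p = 5.15e-05). Among the lower genes Lin52, a MuvB subunit, fell by 0.59 on the log2 scale (SE 0.153, adjusted p = 0.00607). Of the 10 corepressor genes of pocket proteins, 4 were higher and none lower, among them Suv39h1, a histone methyltransferase (1.29 ± 0.226, adjusted p = 0.000495), and Hdac1, a histone deacetylase (1.06 ± 0.237, adjusted p = 0.00249).

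Of the 10 genes for kinases of Rb and their cyclins, 5 were higher and 1 lower over both cKO groups. Ccna2, which encodes cyclin A2, had 3.77 ± 0.528 (edgeR, adjusted p = 0.00011) and Cdk1, the mitotic kinase, 1.54 ± 0.410 (adjusted p = 0.00737), while Ccnd2, which encodes cyclin D2, fell by 0.90 (SE 0.219, adjusted p = 0.0043). Of the 7 CDK inhibitor genes none was higher and 2 were lower over both groups, Cdkn1a (-1.68 ± 0.319, adjusted p = 0.000865) and Cdkn1b, which encodes p27 (-1.15 ± 0.241, adjusted p = 0.00164). Each of these was called lower in 1 cKO group only. Cdkn1a gave -2.81 in P28 (adjusted p = 0.000223) and -0.54 in P4M (adjusted p = 0.281), and Cdkn1b -0.67 in P28 (adjusted p = 0.0755) and -1.64 in P4M (adjusted p = 0.00104). In P28 alone, 2 inhibitor genes were called higher, and they are named here after their values were seen. Cdkn2a, which encodes p16 and p19ARF, lay at 302 to 583 CPM in P28 against 13.9 to 208 CPM in Fgfr3-WT (log2 fold change 2.12 ± 0.568, edgeR adjusted p = 0.0101), and gave 0.40 in P4M (adjusted p = 0.603). Cdkn1c, which encodes p57, lay at 0 to 47.5 CPM in P28 and overlapped Fgfr3-WT at 0 to 1.15 CPM (adjusted p = 0.0446). In P4M alone no inhibitor gene was higher. Cdkn1a lay at 174 to 331 CPM in Fgfr3-WT, 12.9 to 58.7 CPM in P28 and 96.3 to 265 CPM in P4M, and was higher in P4M than in P28 (2.27 ± 0.401, adjusted p = 0.00895), like Rb1. No other inhibitor gene was called between the cKO groups.

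Of 6 tested apoptotic targets of E2F1, 3 were higher and 2 lower over both cKO groups. Casp8ap2, which encodes a protein of death receptor signalling and histone gene expression, had 0.98 ± 0.220 (edgeR, adjusted p = 0.00247). Bbc3, which encodes PUMA and is also a p53 target, fell by 1.08 (SE 0.265, adjusted p = 0.00453) and Apaf1, which encodes the apoptosome scaffold, by 0.82 (SE 0.207, adjusted p = 0.00538). Apaf1 was also lower in P4M than in P28 (-0.99 ± 0.260, adjusted p = 0.0359), where P4M was at 10.6 to 17.6 CPM and P28 at 19.6 to 33.3 CPM.

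The family genes differed in how they followed Mki67, a marker of cycling cells, from clone to clone. In bulk samples, fewer cells of a type and less RNA per cell cannot be told apart, here cycling cells and transcripts per cycling cell. Mki67 was at 0.879, 2.41, 0.850, 33.4 and 5.74 CPM in Fgfr3-WT clones 1 to 5, so replicate 4, which held the most E2f7 and E2f8 of that group, also held the most Mki67. In the cKO clones it was at 49.1 to 142 CPM in P28 and 54.9 to 172 CPM in P4M. After removal of the 3 group means of log2 CPM, Pearson's r with Mki67 over the 14 clones was 0.93 for E2f7, 0.71 for E2f2, 0.61 for E2f1, 0.55 for Rbl1, 0.53 for E2f8 and 0.34 for Tfdp1. It was 0.03 for E2f4, -0.11 for Rb1, -0.22 for E2f3 and -0.27 for Rbl2. For E2f7 the Fgfr3-WT values rest on few counts, 3 of the clones having 0 to 2. Over the 9 cKO clones alone, a choice made after the data were seen, r was 0.93 for E2f2, 0.89 for E2f7, 0.89 for E2f8, 0.79 for Rbl1, 0.78 for E2f1, 0.60 for E2f4, 0.42 for Tfdp1, 0.23 for E2f3, -0.26 for Rb1 and -0.63 for Rbl2. The order of the genes thus depended on the clones used. These are descriptions: both genes of a pair come from the same library at the same depth, and no p is given.

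**Figure D4:**
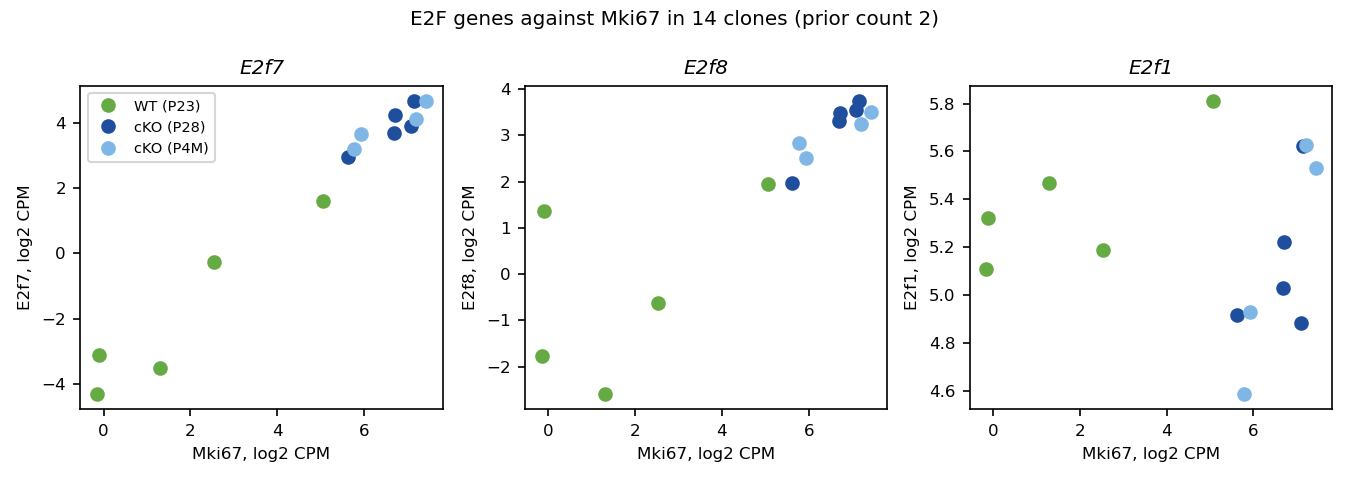
Log2 CPM (prior count of 2) of E2f7, E2f8 and E2f1 against that of Mki67, with 1 point per clone. With group means removed, r with Mki67 is 0.93 for E2f7 and 0.53 for E2f8 over the 14 clones and 0.89 for both over the 9 cKO clones, and E2f1 reaches its highest level in a Fgfr3-WT clone (56.1 CPM).

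Genes whose clone-to-clone pattern was most like that of Rb1, E2f1, E2f4 and E2f8 were ranked by the same r over the 14 clones among 9660 genes. For E2f8 they were Chtf18 (0.95), 4930579G24Rik (0.92) and Timeless (0.92), for E2f4 Nacc1, Exoc8 and Med26 (0.89 each), and both sets were also the top 3 on the deposited rlog values. For E2f1 they were Stub1 (0.88), Ncapg2 (0.88) and Rfc5 (0.87), of which the first 2 stayed in the top 3 on rlog values. For Rb1 they were Cbfa2t2 (0.94), Rbm17 (0.92) and Dnttip1 (0.91), none of which stayed. The rlog values come from the same libraries. Each set holds the highest of 9660 values over 14 clones, and so high an r can arise from this picking alone. Shifts of whole chromosomes between clones can also enter such patterns. Chromosome 8, which holds E2f4, had a median of -0.52 in Fgfr3-WT replicate 5, as described below. The part of such shifts in these r was not tested.

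The neighbourhood of the family genes on their chromosomes was also compared. Mainly E2f2, E2f8, Rb1 and the 3 genes on chromosome 8 are described here, chosen after the values were seen. For each clone, the median log2 difference from the Fgfr3-WT mean was taken over the expressed genes within 5 Mb, less the median of all autosomal genes. Near E2f2, 100 such genes lay at 0.52 to 0.86 in the cKO clones and at -0.37 to 0.36 in Fgfr3-WT. In P28 replicate 1 these neighbours lay at 0.71 and E2f2 itself at -0.12. Over the whole of chromosome 4 the median was 0.28 to 0.58 in the cKO clones. Near E2f8, 61 genes lay at -0.77 to -0.11 in P28 and -0.73 to -0.63 in P4M, against -0.15 to 0.21 in Fgfr3-WT, the opposite direction to E2f8. Near Rb1, 44 genes lay at 0.16 to 0.35 in P28 and 0.21 to 0.37 in P4M, ranges that overlap where those of Rb1 did not. Rbl2, E2f4 and Tfdp1 lie on chromosome 8, whose median was -0.52 in Fgfr3-WT replicate 5 and -0.11 to 0.32 in the other Fgfr3-WT clones. In that replicate Rbl2 lay at -0.56 with its neighbours at -0.39, E2f4 at -0.70 with its neighbours at -0.47, and Tfdp1 at -0.17 with its neighbours at -0.50. It is the clone with the least E2f4 and the Fgfr3-WT clone in which Rbl2 overlapped P4M. Without it, E2f4 in P28 gave 0.35 (edgeR, adjusted p = 0.0918) and Rbl2 in P4M gave -0.59 (adjusted p = 0.0123). The part of these shifts in the levels of the family genes was not tested.

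**Figure D5:**
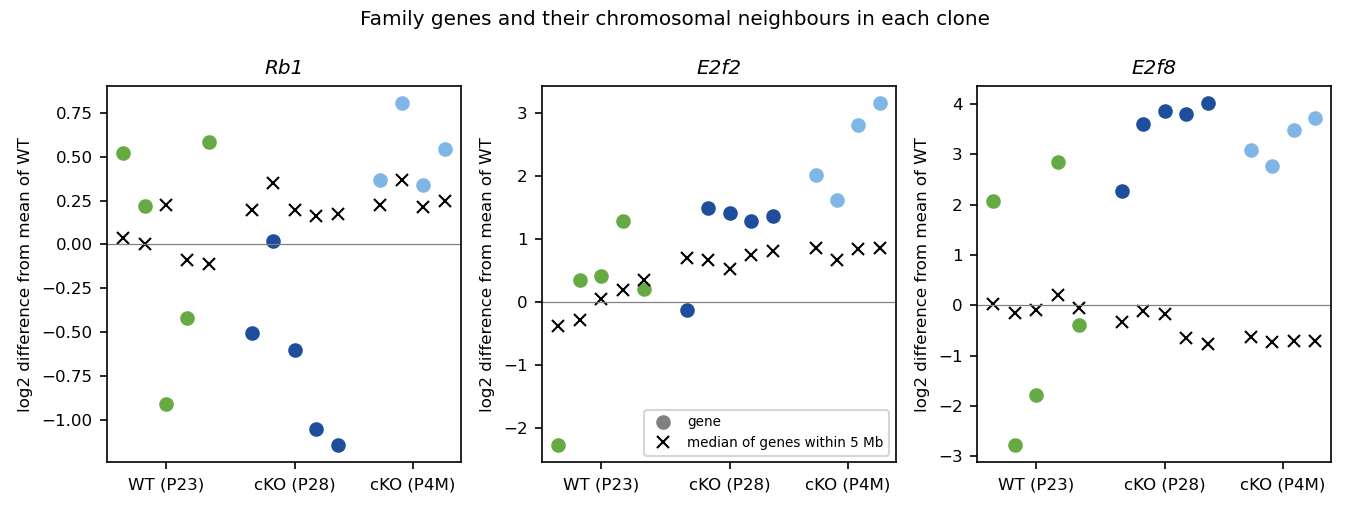
Log2 difference from the Fgfr3-WT average after subtraction of each clone's autosomal median (vertical axis), for Rb1, E2f2 and E2f8 (points) and the median of the expressed genes within 5 Mb (crosses) in each clone, where a Fgfr3-WT clone is set against the other 4. The neighbours of Rb1 lie at 0.16 to 0.37 in all cKO clones while Rb1 lies lower in P28 than in P4M, those of E2f2 lie above 0.5 in all cKO clones, and those of E2f8 lie below 0 in all cKO clones.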

How the data were processed

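Bulk RNA-seq tables of 14 clones (5 Fgfr3-WT, 5 P28, 4 P4M) were used as the authors deposited them. By the methods and the submitters' processing notes, single-end reads of SMART-Seq v4 libraries, which do not mark strand, were checked with FastQC, aligned to mm10 with TopHat and Bowtie2, and counted per gene with HTSeq. The deposited count table holds raw counts that are not normalized. The deposited rlog table holds log2 values that the authors made with DESeq2. The deposited TPM and FPKM tables are normalized for depth and length, and the program that made them is not given in the sources used here. The expected counts, equal to the raw counts, and the depth-normalized counts were not used.

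Genes were kept by filterByExpr (17358 of 30503), scaled by TMM and tested in R 4.3.3 with edgeR 4.0.16 (quasi-likelihood, robust, 3 groups in 1 model, 4 contrasts, Benjamini-Hochberg, FDR 0.05). Only the edgeR fit was tested on simulated counts, in which far fewer genes changed than were called here and both cKO groups changed alike. The other steps were not tested in this way. CPM values use TMM-scaled totals, and log2 CPM a prior count of 2. Each SE of an edgeR fold change was derived from the test. It is the absolute log2 fold change divided by the square root of the F statistic. No batch term could be fitted. The family and the gene lists were chosen with earlier results of these data known. The rule for named genes takes all 10 family genes, E2f5, E2f6, Tfdp2, Trp53, Cdkn1a and Mki67, and from each list the 2 largest rises and 2 largest falls over both cKO groups among called genes that average 3 or more in log2 CPM, and list genes called in P4M against P28. An item that this rule takes is not reported here. The TPM shares, promoter words and neighbour medians were added after values were seen, and genes named for them, for shared exons or as markers fall outside the rule. Annotation was GENCODE M21 (mm10). Alternatives used DESeq2 1.42.0 and limma 3.58.1 (log2(TPM + 1)). The remaining steps ran in Python 3.11.15 with pandas 2.3.3, numpy 2.4.6 and matplotlib 3.10.9. Floors of 3 counts cover counting error only, since reads without molecular identifiers are not independent molecules.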

Additional observations from a re-analysis of the deposited data

Results flagged for a closer look

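E2f2 in P28 replicate 1 was at 0.753 CPM, while the other 4 clones of that group lay at 2.05 to 2.44 CPM, a gap larger than expected at the 95% limit of Dixon's test. E2f7 in Fgfr3-WT replicate 4 was at 2.99 CPM, while the other 4 lay at 0 to 0.792 CPM. Of 30 groups of values examined, chance alone would set apart about 5%. Without Fgfr3-WT replicate 4 the log2 fold change of E2f7 over both cKO groups was 6.17 in place of 4.34.

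Rb1 differed between the cKO groups by 1.18 on the log2 scale (edgeR contrast of P4M and P28, adjusted p = 0.0254). The Fgfr3-WT clones cancel in the fold change of this contrast. Its adjusted p still draws on them, since all 14 clones share 1 estimate of the spread per gene. Isolation age, time since tamoxifen and passage range cannot be told apart in this contrast. Against Fgfr3-WT, Rb1 was called in neither group (edgeR, adjusted p = 0.0783 in P28 and 0.114 in P4M). The call between the cKO groups was lost in 4 of 14 fits that left out 1 clone, and with limma on TPM. Rb1 was higher in 4 of 4 P4M clones than in any P28 clone.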

How the results depend on the processing

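Of the alternative values of single fold changes in the family, 768 kept their direction and side of the threshold, 47 lost the call, 16 gained it and 27 turned direction. With a minimum absolute log2 fold change of 1, 2 family genes were called in P28, 3 in P4M and 3 over both cKO groups. With at least 10 counts in every clone, which leaves 7 of the 10 genes in the test, 4 were called in P4M and 4 over both groups. For P4M against P28, 2 genes were called with only these groups in the fit and 2 with DESeq2, and 0 with limma on TPM. Leaving out each clone in turn gave 4 to 6 genes in P28, 6 to 7 in P4M, 6 to 8 over both groups and 0 to 2 for P4M against P28, with 2 without Fgfr3-WT replicate 1 and 0 without P28 replicate 1, P28 replicate 3, P4M replicate 2 or P4M replicate 4. The causes were not tested.

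Directions turned only for uncalled values: on TPM, Rbl2 (0.038) and E2f1 (0.043) in P28, and E2f1 (-0.15) and E2f7 (-0.11) in P4M against P28. Without scaling they turned for Rb1 over both groups (0.012), and for E2f1 (-0.0044) and E2f7 (-0.071) in P4M against P28. Without a filter they turned for Rb1 over both groups (0.036) and Tfdp1 in P4M against P28 (0.0077). With single clones left out, E2f1 in P4M ranged from -0.33 to 0.0018 and Rb1 over both groups from -0.18 to 0.094. For P4M against P28 the ranges were -0.089 to 0.26 for E2f1, -0.25 to 0.0012 for E2f3, -0.18 to 0.035 for E2f4, -0.30 to 0.25 for E2f7 and -0.14 to 0.21 for Tfdp1. Over all genes, 1254 genes were called for P4M against P28 as reported, 3051 with only these groups in the fit and 2607 with DESeq2. A minimum log2 fold change of 1 left 4040 genes in P28 and 5149 in P4M. List counts under settings other than DESeq2 were added after the data were seen, and 1293 stayed within 1.5 times their value and 99 did not. Shares by FPKM equalled those by TPM apart from rounding. Within a library these units differ only by a common factor, so this comparison cannot test the shares. That factor differs between libraries, so totals compared between groups depend on the unit. The pocket protein genes summed to 23.8, 21.7 and 24.1 FPKM on average in Fgfr3-WT, P28 and P4M. No paired analysis was possible because the replicate numbers only count clones within a group. At this depth, E2f7 in 3 Fgfr3-WT clones was at or under the 3-count floor, so its level there was not measurable.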

Other observations

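The family genes also differed among themselves within groups. With group means removed, the log2 levels of E2f3 and Tfdp1 moved together over the 14 clones (r = 0.72), as did those of E2f7 and E2f8 (r = 0.67) and those of Rbl1 and E2f2 (r = 0.64), while Rb1 and Tfdp1 moved apart (r = -0.63). These pairs were picked from all pairs of family genes after the values were seen. Over the 9 cKO clones alone r was 0.93, 0.86, 0.74 and -0.66 in the same order. Other pairs depended more on the clones used, such as E2f2 and E2f8, with 0.09 over the 14 clones and 0.94 over the 9 cKO clones. Each r is a description over clones whose values share a library and its depth.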
